A study of Mus musculus with 12 samples.

Results

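A set of 10 immediate-early genes were followed by symbol through RNA-seq of sorted mouse glomerular endothelial cells (GEC): the AP-1 genes Fos, Fosb, Fosl2, Jun, Junb, Jund and Atf3, the zinc finger gene Egr1, and Ier2 and Nr4a1. All 10 of the 10 were listed in both deposited count tables, out of 19564 genes listed in either. The study compared wild type (WT) mice with mice of a model of Alport syndrome (AS), an inherited kidney disease of type IV collagen, labelled Col4a5 -/-, and within each genotype compared GEC with a weak (dim) and a strong (bright) red fluorescence of tdTomato (tdT). There were 3 mice per genotype, each giving a dim and a bright library, so that 12 libraries formed 4 groups of 3. Mice of all 4 groups were of the C57BL/6 strain, were 4 months old, and carried a Cre recombinase driven by the Tek promoter with a Cre-dependent tdTomato reporter. Renal cortices were minced and digested, glomeruli were caught on a sieve and digested again to single cells, and the cells were sorted by tdT brightness. Tek-driven Cre is also known to act in blood cell lineages, and the sort described in the methods rested on size, single cells and tdT brightness. After sorting, the paper reported nearly all dim and bright cells to stain for the endothelial protein Ehd3, and almost none for the podocyte protein WT1.

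Immediate-early genes are switched on within minutes of a stimulus by transcription factors that are already in the cell, without the making of new protein. The Fos and Jun proteins pair through leucine zippers into the transcription factor AP-1, while Egr1 and Nr4a1 bind their own DNA elements, and together they start the next wave of transcription after growth factors, mechanical strain or injury. In endothelial cells they are known as early reporters of flow and of inflammatory signals, and in many tissues they are also known to rise while the tissue is being taken apart into single cells.

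The promoters are shown because their upstream bases hold known response elements, for 5 genes that rose in bright GEC and for Nr4a1, which did not. Of the 10 genes, 8 were matched by symbol to the RefSeq promoter table of build GRCm38.p6. Of these, 6 are printed from 120 bases before the RefSeq start up to the start, 5′ to 3′ on the gene's own strand. The Fos stretch is chr12:85473770-85473889 on the plus strand, the Fosb stretch is chr7:19310046-19310165 on the minus strand and the Jun stretch is chr4:95052223-95052342 on the minus strand. The Junb stretch is chr8:84978749-84978868 on the minus strand, the Atf3 stretch is chr1:191183334-191183453 on the minus strand and the Nr4a1 stretch is chr15:101266726-101266845 on the plus strand. Capitals mark the bases of TGACG (the core of a cAMP response element, read on either strand), GCGNGGGCG (the Egr element, either strand), TGACATCA (the Jun element, either strand) and TATAAA (the TATA box, gene strand).
Fos: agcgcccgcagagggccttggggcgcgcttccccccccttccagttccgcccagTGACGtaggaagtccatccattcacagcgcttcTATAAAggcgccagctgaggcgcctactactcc
Fosb: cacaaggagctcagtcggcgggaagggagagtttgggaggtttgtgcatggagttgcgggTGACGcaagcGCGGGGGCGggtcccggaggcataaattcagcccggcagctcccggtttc
Jun: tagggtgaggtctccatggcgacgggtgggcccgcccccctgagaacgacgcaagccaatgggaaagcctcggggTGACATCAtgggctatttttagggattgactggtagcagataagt
Junb: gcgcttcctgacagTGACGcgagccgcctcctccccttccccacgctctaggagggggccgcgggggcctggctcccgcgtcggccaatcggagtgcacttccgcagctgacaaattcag
Atf3: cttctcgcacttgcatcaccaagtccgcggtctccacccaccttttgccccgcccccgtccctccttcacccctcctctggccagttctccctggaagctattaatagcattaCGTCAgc
Nr4a1: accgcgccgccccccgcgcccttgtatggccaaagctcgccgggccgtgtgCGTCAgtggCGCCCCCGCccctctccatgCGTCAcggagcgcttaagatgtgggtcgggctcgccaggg

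Within the 250 bases before the start, TGACG was found for 5 of the 8 matched genes (Fos, Fosb, Junb, Atf3 and Nr4a1) and in 17.8% of all 32851 promoters of the table. The Egr element was found for 3 of the 8 (Fosb, Fosl2 and Nr4a1) and in 4.70% of all promoters. TGACATCA was found for Jun and in 2.93% of all promoters, and TATAAA for Fos and in 7.59%. The full cAMP response element TGACGTCA, which contains TGACG, the AP-1 element TGANTCA and the CArG box of serum response factor were found for 0 of the 8, and in 1.55%, 6.75% and 1.47% of all promoters. Bases farther upstream were not searched, so that 0 matches here does not mean that a gene lacks the element. These motifs were chosen with the sequences in view, and a match describes letters and not binding. The RefSeq starts of Fos and Jun were at the first base of the GENCODE M21 gene, and those of Fosb and Junb were 6 and 30 bases from it. Those of Fosl2, Jund, Nr4a1 and Atf3 were 671, 1210, 12577 and 34706 bases from it, so that a GENCODE transcript of these genes can start elsewhere. Annotated exons of the same gene cover 7 bases of the Atf3 stretch and 6 of the Fosb stretch. The marked Atf3 match is at positions -7 to -3 from the RefSeq start, and may thus lie in an exon. No promoter of Egr1 and Ier2 is shown.

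The libraries held 11440169 to 15074909 counts on genes. Against the labels, Col4a5, which encodes a chain of the collagen of the glomerular basement membrane, gave 771, 439 and 877 reads for WT dim replicates 1 to 3 and 51, 24 and 17 for AS dim replicates. Bright libraries gave 158, 69 and 78 for WT and 43, 104 and 55 for AS, and there the groups overlapped. Its log2 fold change of AS over WT was -4.69 (SE 0.45, adjusted p = 0.00982) in dim and -0.60 (SE 0.47, adjusted p = 0.495) in bright GEC (edgeR's quasi-likelihood test, p-values adjusted by Benjamini-Hochberg over all genes tested). The dim value lost its call without AS dim replicate 1 (adjusted p = 0.0599) or AS dim replicate 3 (0.0968). Nephron markers fell in the same dim libraries, with 5 of 5 distal nephron genes lower in AS (median log2 -3.25), 7 of 14 of the proximal tubule (median -4.25) and 2 of 6 of the podocyte (median -1.37), so that a changed allele and fewer such cells cannot be told apart. In the bright libraries this gene could not check the label, and the labels do not say which part of it the allele alters. The label of GEC was also compared with marker genes, summed as CPM, counts per 1000000 of each library's effective size, which is its counts on genes listed in both tables and past a filter on low counts, times a TMM factor. The 14 endothelial markers came to 11036 to 16987 CPM in WT bright, 16508 to 19353 in AS bright, 749 to 1389 in WT dim and 243 to 335 in AS dim libraries. The 12 leukocyte markers listed in both tables (of 18) came to 55.0 to 102 CPM in WT bright and 112 to 151 in AS bright libraries. In WT dim libraries they came to 8821 to 15260 CPM, and in AS dim to 16966 to 19543. Leukocyte markers thus outweighed endothelial markers in all 6 dim libraries, and dim GEC is used below as the name of the sort gate. Of the endothelial list 13 of 14 genes were higher and 1 lower in bright than dim GEC of each genotype, and of the leukocyte list 12 of 12 were lower. No marker of these sums was at 0 in every library of a group. In such bulk samples, fewer cells of a type and less RNA per cell cannot be told apart.

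Most of the 10 genes were much higher in bright than in dim GEC, in WT as in AS. Fos, Fosb, Jun, Egr1 and Atf3 rose 3.88-fold to 8.96-fold and Junb, Jund and Ier2 1.88-fold to 3.41-fold, whereas Fosl2 and Nr4a1 did not rise. By edgeR's quasi-likelihood test at an adjusted p of 0.05, 8 of the 10 were higher in bright GEC of WT mice and none was lower. Over all 14247 genes tested there, 25.3% passed, and 13.8% passed as higher in bright. In AS mice all 10 passed, 8 as higher and 2 as lower, where 55.1% of 14052 genes passed, 28.6% as higher and 26.5% as lower. The median log2 fold change of the 10 was 2.17 in WT and 1.76 in AS, beside -0.04 and 0.02 over all genes tested. The 2 comparisons use different mice and share no library. In both, the subpopulations also differed in the marker sums above. With the mean log2 CPM of the proximal tubule markers as a covariate, the median of the 10 was 1.94 in WT and 1.76 in AS. The same covariate from leukocyte markers, given near the end, nearly equals the group and so cannot decide. The part of the other markers in the values below was not tested.

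**Figure D1:**
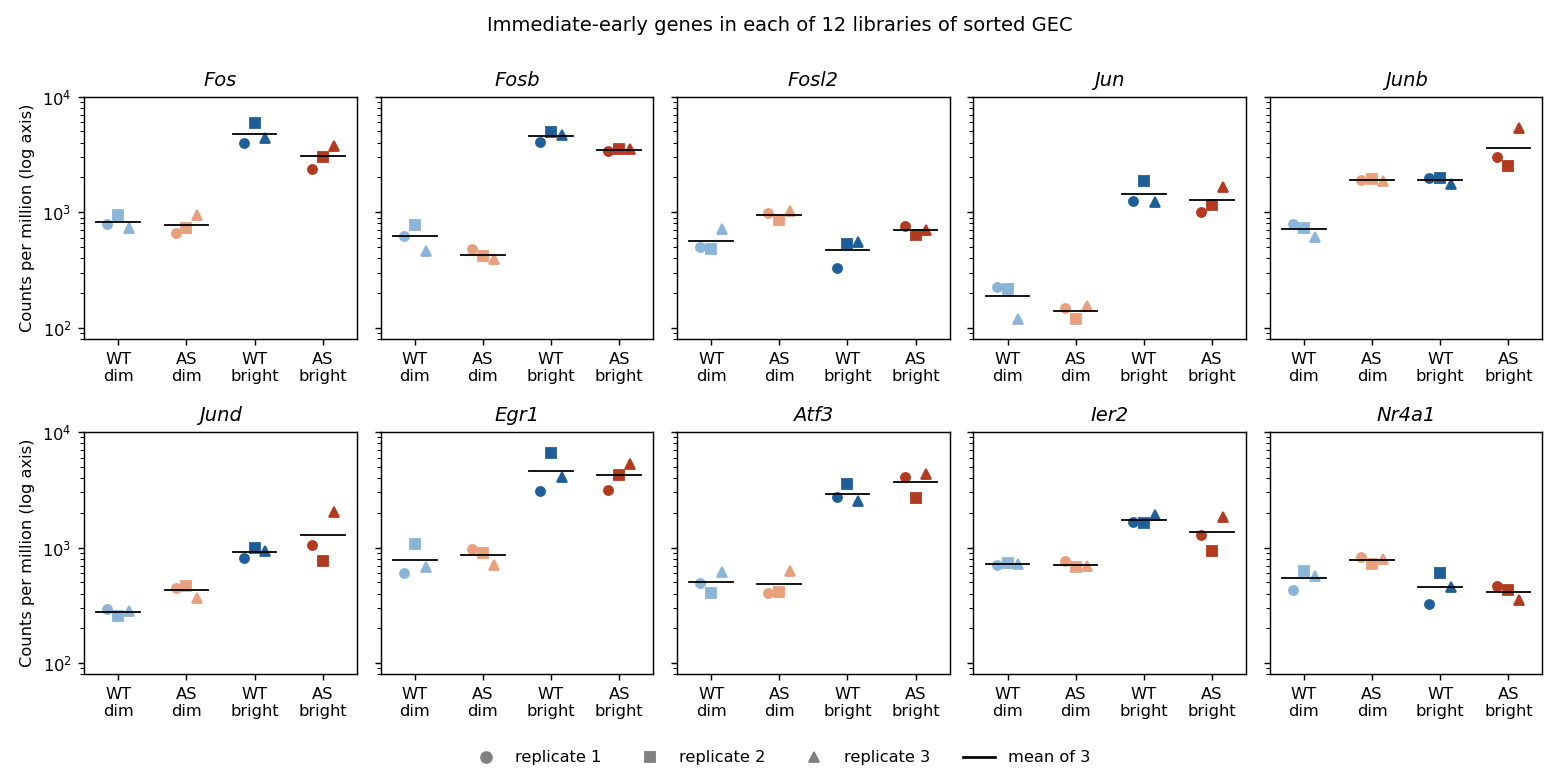
CPM of each gene (vertical log axis) in each of the 12 libraries, by group on the horizontal axis, with 1 symbol per library shaped by replicate number and a line at the mean of 3. In 8 panels every bright library lies above every dim library of the same genotype, while Fosl2 and Nr4a1 lie lower in AS bright than in AS dim libraries and overlap between the WT groups.

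Fos, the founding partner of AP-1, had 786, 943 and 731 CPM in WT dim replicates 1 to 3 and 3942, 5908 and 4386 CPM in WT bright. In AS it had 663, 728 and 941 CPM in dim and 2348, 3003 and 3755 CPM in bright libraries. Every bright library was thus above every dim one, with WT bright replicate 2 the highest of all. The log2 fold change of bright over dim was 2.57 (SE 0.27, adjusted p = 0.000168) in WT and 1.96 (SE 0.23, adjusted p = 6.06e-05) in AS by edgeR's quasi-likelihood test.

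Fosb, a Fos paralog that also pairs with Jun proteins, had 626, 773 and 458 CPM in WT dim and 4014, 4954 and 4672 CPM in WT bright libraries. AS libraries had 477, 418 and 392 CPM in dim and 3366, 3535 and 3543 CPM in bright libraries. Its rise in bright GEC was 7.58-fold in WT (log2 2.92, SE 0.28) and 8.06-fold in AS (log2 3.01, SE 0.19), and its 3 AS bright libraries lay close together.

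Fosl2, which encodes the slower Fos relative Fra-2, went the other way. It had 499, 485 and 714 CPM in WT dim and 328, 536 and 557 CPM in WT bright libraries, which overlapped. In AS it had 983, 850 and 1019 CPM in dim and 757, 630 and 698 CPM in bright libraries, with every bright library below every dim one. Its log2 fold change was -0.22 (SE 0.27, adjusted p = 0.597) in WT and -0.46 (SE 0.17, adjusted p = 0.0369) in AS by edgeR's quasi-likelihood test. The call in AS was lost when the mouse was kept as a block (log2 -0.46, adjusted p = 0.0527) or when all 12 libraries were in one fit (log2 -0.45, adjusted p = 0.127). It was also lost when AS dim replicate 1 or 3 (adjusted p = 0.123 for each) or AS bright replicate 1 or 3 (0.0568 and 0.0667) was left out.

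Jun, the transcriptionally strong partner of Fos, had 225, 217 and 120 CPM in WT dim and 149.9, 119 and 155 CPM in AS dim libraries. It had 1241, 1869.7 and 1222 CPM in WT bright and 999, 1164 and 1659 CPM in AS bright libraries. Its rise of 7.96-fold in WT (log2 2.99, SE 0.32) and 8.96-fold in AS (log2 3.16, SE 0.24) was close to that of Fosb. In AS, without AS bright replicate 3, Jun was at a log2 of 2.94 and Fosb at 3.01, and the difference between the genes was not tested.

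Junb, a Jun family member that often holds Jun back, rose less. It had 792, 737 and 609 CPM in WT dim and 1984, 1987 and 1739.6 CPM in WT bright libraries, a log2 fold change of 1.47 (SE 0.22). In AS it had 1909.8, 1929.9 and 1874 CPM in dim and 3014, 2518 and 5301 CPM in bright libraries, a log2 fold change of 0.91 (SE 0.27, adjusted p = 0.0161). The AS dim libraries lay within the range of the WT bright libraries, and AS bright replicate 3 stood far above the other two of its group. Without that library the log2 fold change in AS was 0.54 (adjusted p = 0.0271 by edgeR's quasi-likelihood test). The call was lost without AS dim replicate 1 or 3 (adjusted p = 0.0585 and 0.0556).

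Jund, the most constant Jun family member in resting cells of many types, had 296, 257 and 282 CPM in WT dim and 814, 994 and 942 CPM in WT bright libraries. In AS it had 450.1, 469 and 364 CPM in dim and 1060.4, 771 and 2014 CPM in bright libraries. Both genotypes showed bright libraries above dim ones without overlap, with a log2 fold change of 1.77 (SE 0.21) in WT and 1.57 (SE 0.32) in AS. Again AS bright replicate 3 was the highest, and without it the AS value was 1.10 (adjusted p = 0.00274 by edgeR's quasi-likelihood test).

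Egr1, a zinc finger activator of growth and matrix genes, had 604, 1067 and 683 CPM in WT dim and 3088, 6548 and 4122 CPM in WT bright libraries. The AS libraries held 964, 905 and 714 CPM in dim and 3169.9, 4217 and 5266 CPM in bright libraries. Its WT bright libraries were scattered, with replicate 2 above the others, and still no bright library came down to a dim one. The log2 fold change was 2.58 (SE 0.36) in WT and 2.28 (SE 0.24) in AS.

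Atf3, a stress-induced AP-1 partner, had 493, 405 and 621 CPM in WT dim and 2728, 3541 and 2529.9 CPM in WT bright libraries. For AS it stood at 405, 415 and 623 CPM in dim and 4050.4, 2704 and 4310.4 CPM in bright libraries. The rise was 5.97-fold in WT (log2 2.58, SE 0.27) and 7.61-fold in AS (log2 2.93, SE 0.26).

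Ier2, a small nuclear protein that is induced with Fos and Egr1, was the least variable of the 10 genes among WT dim libraries, with 704, 739 and 725 CPM. It had 1670.2, 1633 and 1923 CPM in WT bright libraries, 762, 684 and 694 CPM in AS dim and 1277, 930.5 and 1852 CPM in AS bright libraries. The groups did not overlap, and the log2 fold change was 1.32 (SE 0.21) in WT and 0.91 (SE 0.24) in AS, or 0.63 without AS bright replicate 3 (adjusted p = 0.0238 by edgeR's quasi-likelihood test).

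Nr4a1, an orphan nuclear receptor induced in activated lymphocytes, macrophages and vascular cells, was like Fosl2 not higher in bright GEC. It had 432, 626 and 568 CPM in WT dim and 322, 601 and 456 CPM in WT bright libraries, with overlap. In AS it had 829, 726 and 800.1 CPM in dim and 465, 428 and 350.0 CPM in bright libraries, without overlap. On the log2 scale bright over dim was -0.20 (SE 0.27, adjusted p = 0.627) in WT and -0.93 (SE 0.17, adjusted p = 0.00118) in AS by edgeR's quasi-likelihood test.

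Bright and dim libraries did not overlap for 8 of the 10 genes in WT, all of them higher in bright, where 41.8% of all genes tested did not overlap and 20.8% did so as higher. In AS there was no overlap for any of the 10 genes, 8 of them higher and 2 lower in bright, beside 62.2% of all genes, 32% as higher and 30.2% as lower. Taken as a sum, the 10 genes held 0.513% to 0.646% of all gene counts in WT dim and 0.731% to 0.771% in AS dim libraries. They held 2.18% to 2.93% in WT bright and 1.93% to 2.62% in AS bright libraries.

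**Figure D2:**
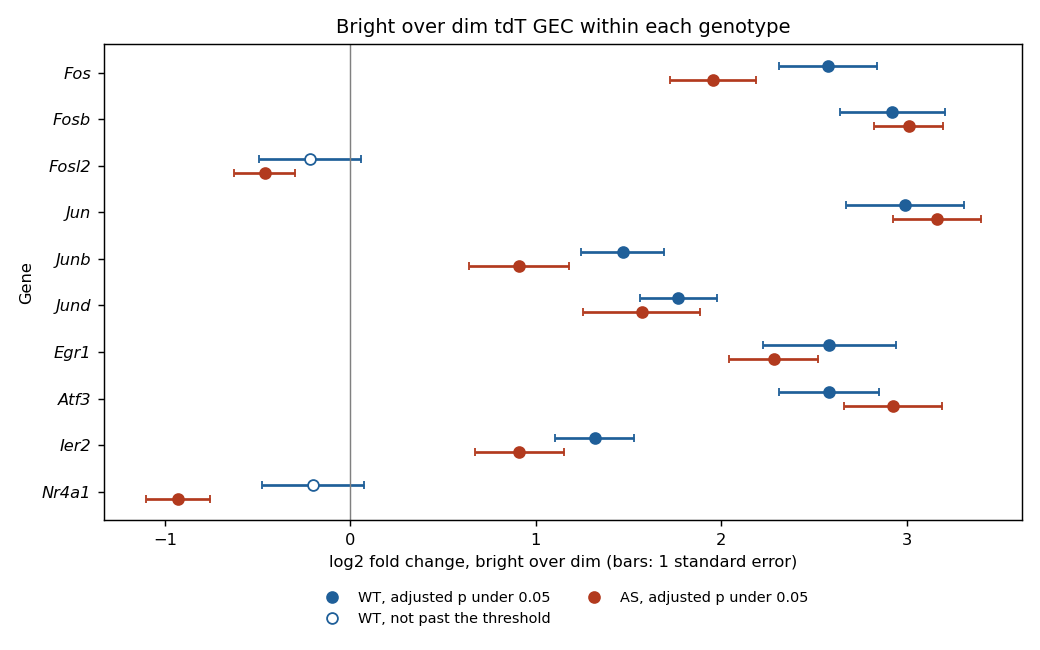
The log2 fold change of bright over dim GEC (horizontal axis) for each gene, with bars of 1 standard error, in WT and AS mice, where filled points passed an adjusted p of 0.05. Jun and Fosb lie farthest to the right in both genotypes, and Fosl2 and Nr4a1 lie left of 0.

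AS was then compared with WT within each subpopulation, to ask whether disease changed the same genes. In dim GEC Junb was 2.61-fold higher in AS (log2 1.38, SE 0.16, adjusted p = 0.0142 by edgeR's quasi-likelihood test), and it was the only one of the 10 to pass. An unadjusted p under 0.05 was found for 5 of the 10, beside 26.3% of all genes. Over all 14637 genes tested there, 8.63% passed and 2.21% passed as higher in AS. In bright GEC 0 of the 10 passed by edgeR's quasi-likelihood test, by its likelihood ratio test or by DESeq2. Over all genes, 0.452% of 14396 passed by the first of these, 827 of 14396 by the likelihood ratio test and 1173 of 17521 by DESeq2. Fos and Junb, 2 of the 10, had an unadjusted p under 0.05 by the first test, beside 21.8% of all genes. The median log2 fold change of the 10 was 0.02 in dim and -0.20 in bright GEC, beside -0.02 and -0.03 over all genes tested.

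The 3 AS dim libraries had Junb at 1874 to 1929.9 CPM and the WT dim libraries at 609 to 792 CPM, and no other of the 10 differed as far. The call of Junb was lost when AS dim replicate 1 (adjusted p = 0.113) or AS dim replicate 3 (0.106) was left out, with the log2 fold change at 1.36 and 1.40, in fits where 0 and 1 of all genes passed. In dim GEC the marker sums also moved with genotype, with 8 of 13 endothelial markers tested lower in AS, 3 of 17 leukocyte markers higher and 7 of 14 proximal tubule markers lower. The endothelial and leukocyte sums are given above, and the 14 proximal tubule markers came to 1896 to 8619 CPM in WT dim and 38.2 to 561 CPM in AS dim libraries. With the mean log2 CPM of the leukocyte or of the proximal tubule markers as a covariate, the log2 fold change of Junb was 1.66 (adjusted p = 0.161) or 1.58 (adjusted p = 0.593), neither past the threshold. In bright GEC Junb had a log2 fold change of 0.85 (SE 0.29, adjusted p = 0.140), its groups did not overlap, and without AS bright replicate 3 the value was 0.45.

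Of the other members in dim GEC, Fosl2, Jund and Nr4a1 did not overlap between the groups, all higher in AS. Together with Junb this made 4 of the 10, beside 31.6% of all genes tested, or 16.1% as higher in AS. Values on the log2 scale were 0.72 (SE 0.19, adjusted p = 0.0569) for Fosl2, 0.59 (SE 0.17, adjusted p = 0.0696) for Jund and 0.50 (SE 0.18, adjusted p = 0.119) for Nr4a1 by edgeR's quasi-likelihood test. Fosl2 came past the threshold in 5 of 18 other settings and Jund in 2 of 18. Fosb had a log2 fold change of -0.56 (SE 0.22, adjusted p = 0.145) and Jun of -0.44 (SE 0.27, adjusted p = 0.344). For Fos, Egr1, Atf3 and Ier2 the log2 fold changes in dim GEC lay between -0.11 and 0.10, with standard errors of 0.14 to 0.24.

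In bright GEC the groups did not overlap for Fosl2 and Junb, higher in AS, and for Fos and Fosb, lower in AS, that is for 4 of the 10 beside 24.7% of all genes tested, or 15.6% as higher and 9.08% as lower. Fos had a log2 fold change of -0.71 (SE 0.26, adjusted p = 0.159), Fosb of -0.45 (SE 0.22, adjusted p = 0.260) and Fosl2 of 0.49 (SE 0.23, adjusted p = 0.242). Jund, at 0.41 (SE 0.31), changed direction without AS bright replicate 3. The remaining genes, Jun, Egr1, Atf3, Ier2 and Nr4a1, lay between -0.44 and 0.26.

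**Figure D3:**
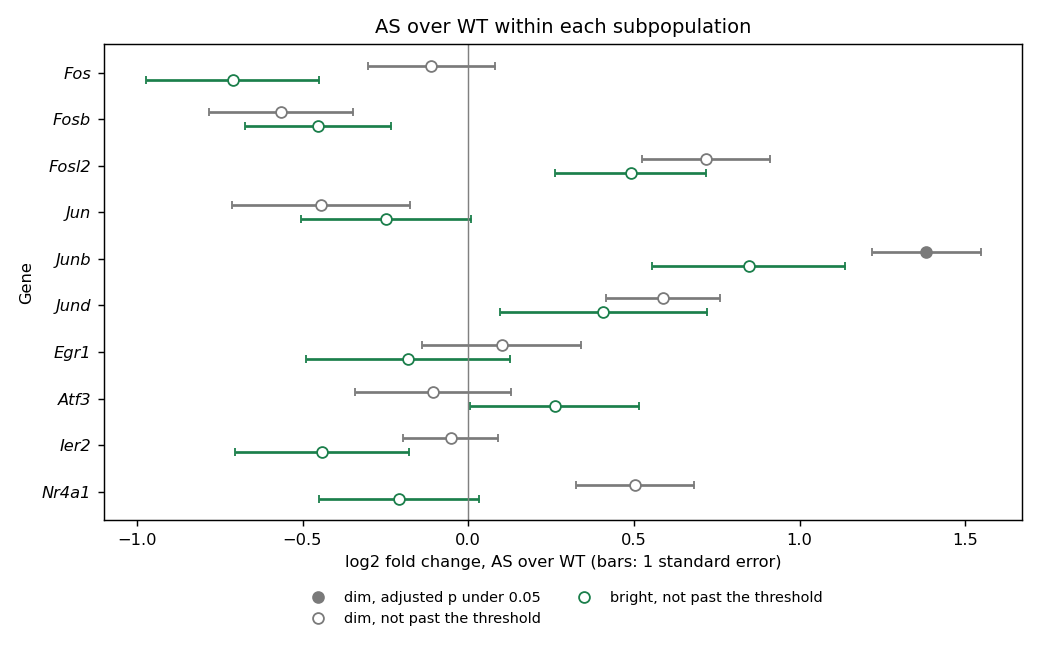
The log2 fold change of AS over WT (horizontal axis) for each gene, with bars of 1 standard error, in dim and bright GEC, where the filled point passed an adjusted p of 0.05. Junb in dim GEC, at 1.38, is the filled point, and Fos and Fosb lie left of 0 in bright GEC.

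Whether the genotype difference itself differed between bright and dim GEC was tested as an interaction over all 12 libraries. Of the 10 genes, 0 passed by edgeR's quasi-likelihood test, its likelihood ratio test or DESeq2, beside 3.77% of 15084 genes that passed by the first test. More of all genes passed by the other tests, with the counts given below. An unadjusted p under 0.05 was found for 0 of the 10, beside 18.5% of all genes. The values, bright minus dim, ran from -0.68 (SE 0.33, adjusted p = 0.286) for Nr4a1 to 0.40 (SE 0.36, adjusted p = 0.599) for Atf3, with Junb at -0.49 (SE 0.35) and Fos at -0.57 (SE 0.33). Without AS bright replicate 3 the Junb value was -0.87 (adjusted p = 0.114). The Junb difference was thus not shown to be larger in dim than in bright GEC.

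Levels were compared between genes per length, as CPM per kilobase (kb) of the exons of each gene in GENCODE M21. The length is the union of exons over all transcripts of a gene, such as 1522 bases for Ier2, 6243 for Fosb and 9680 for Fosl2. The order and the family shares below depend on this choice. In WT bright libraries Fos stood at 2018 ± 438 CPM per kb (SD, n = 3), the 9th highest of 17505 genes. Atf3 followed at 1362 ± 249, then Ier2 at 1145 ± 104, Egr1 at 1023 ± 396, Junb at 827 ± 61.7, Fosb at 728 ± 77.2, Jund at 549.7 ± 55.7 and Jun at 453 ± 116 CPM per kb. Nr4a1 at 131 ± 39.7 and Fosl2 at 48.9 ± 13.04 CPM per kb closed the order. Of the neighbours in it, Fos and Atf3, Fosb and Jund, Jun and Nr4a1, and Nr4a1 and Fosl2 had ranges that did not overlap, whereas the other neighbours overlapped.

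In AS bright libraries Atf3 (1712 ± 400.3 CPM per kb) and Junb (1569 ± 645 CPM per kb) came before Fos (1291 ± 299 CPM per kb), as the 9th, 13th and 17th highest genes, and these 3 overlapped. Ier2 led in WT dim libraries at 475 ± 11.7 CPM per kb, above the range of Fos (349 ± 46.7) and Junb (309.9 ± 40.9), which overlapped. Junb led in AS dim libraries at 828 ± 12.2 CPM per kb, as the 38th highest of 17778 genes, above the range of Ier2 (469 ± 27.8). In WT dim libraries Junb was the 146th highest.

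The shares of each gene in its family are given as a description. They add up to 100% within a family, so that they are not independent of each other. Of the summed CPM per kb of Jun, Junb and Jund, Junb held 57.8 ± 1.47% in WT dim and 73.4 ± 1.68% in AS dim libraries (SD, n = 3), and 45.4 ± 3.79% in WT bright and 57.4 ± 0.55% in AS bright libraries. Jun held 10.8 ± 2.47% in WT dim, 3.94 ± 0.65% in AS dim, 24.5 ± 3.598% in WT bright and 15.3 ± 3.27% in AS bright libraries. Jund held 31.4 ± 3.93% in WT dim, 22.7 ± 2.20% in AS dim, 30.1 ± 2.69% in WT bright and 27.4 ± 3.02% in AS bright libraries. AS and WT did not overlap for Junb and Jun in either subpopulation and for Jund in dim GEC. None of the 12 comparisons of AS with WT over both families passed, with adjusted p-values of 0.171 to 0.5 by two-sided exact permutation tests, whose smallest unadjusted p for 3 libraries against 3 is 0.1, and bright and dim shares were not tested against each other. Jun's own level in dim GEC did not pass between genotypes, as given above. The Jun family sum was 535 ± 60.9 CPM per kb in WT dim and 1128 ± 41.2 in AS dim libraries, and 1829.9 ± 188 in WT bright and 2737 ± 1133 in AS bright libraries.

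Of the summed CPM per kb of Fos, Fosb and Fosl2, Fos held the most in every library. Fosl2 held 11.8 ± 3.84% in WT dim and 19.8 ± 1.95% in AS dim libraries, and 1.75 ± 0.37% in WT bright and 3.83 ± 0.89% in AS bright libraries. For Fosl2 too AS and WT did not overlap in either subpopulation. The Fos family sum was 506 ± 61.0 CPM per kb in WT dim and 497 ± 61.4 in AS dim libraries, which overlapped. It was 2795 ± 515 in WT bright and 1920.0 ± 310.2 CPM per kb in AS bright libraries, which did not.

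**Figure D4:**
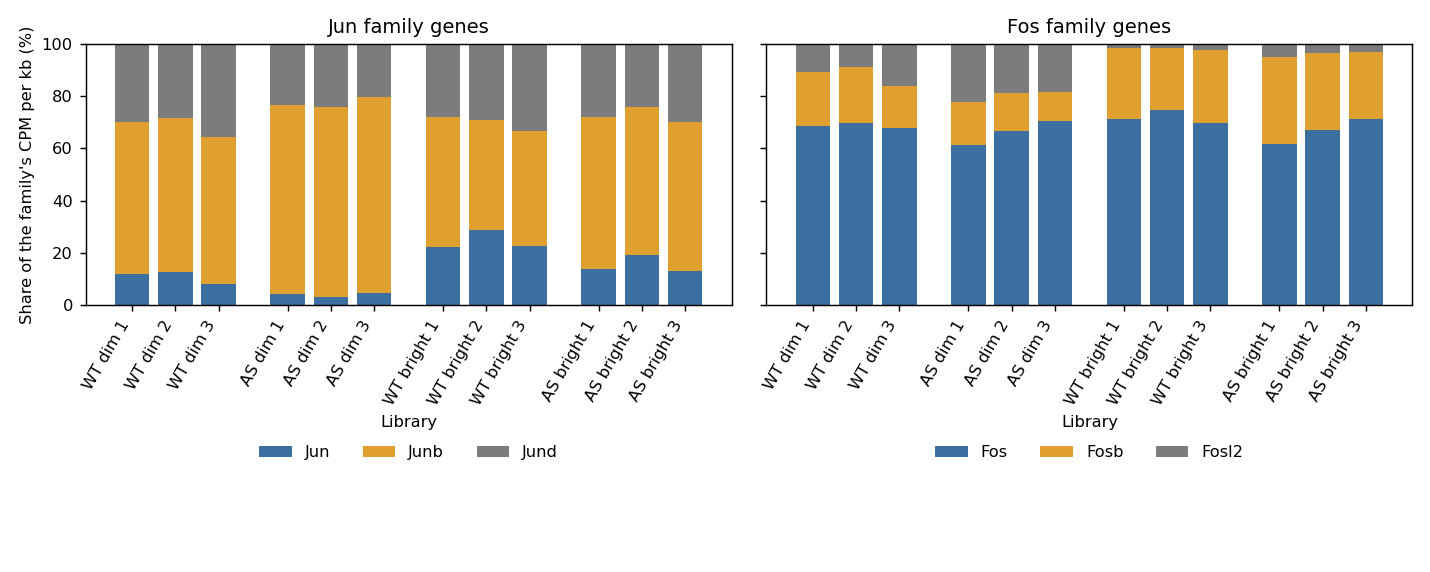
Share of each gene in the summed CPM per kb of its family (vertical axis, percent) in each of the 12 libraries, as stacked bars for the Jun family on the left and the Fos family on the right. The Junb part is larger in AS than in WT libraries of the same subpopulation, and the Fosl2 part is small in all bright libraries, at 1.44% to 4.84%.

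Libraries of a group also differed in the genes as a set. In WT bright replicate 2, 9 of the 10 genes were above the group mean of log2 CPM, by 0.25 on average over the 10, and in WT bright replicate 1 only 1 was. In AS bright replicate 3, 9 of the 10 were above it, by 0.31 on average. Among dim libraries the averages lay between -0.07 and 0.10. Endothelial markers came to 16987 CPM in WT bright replicate 2, beside 11036 and 14922 in the other two, and to 16508 CPM in AS bright replicate 3, the lowest of its group. The spike-in RNAs took 0.0303% of counts in WT bright replicate 2, beside 0.108% or more in the other two, and 0.0286% in AS bright replicate 3, beside 0.0795% and 0.0544%, so that both libraries had the lowest share of their group. The part of these markers and of the spike-in share in the set's level was not tested.

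Related genes were followed from 6 lists with 74 genes tested. In WT 47 of the 74 passed between bright and dim GEC, 63.5% beside 25.3% of all genes, and in AS 49 of the 74, 66.2% beside 55.1%. Among 23 other immediate-early genes, 14 were higher and 4 lower in bright than dim GEC of WT mice, and 15 were higher and 4 lower in AS mice, with a median log2 fold change of 1.46 and 0.93. Ier5l rose 15.7-fold in WT and 22.4-fold in AS, Arc, a gene of neuronal activity that many cells also induce, rose 9.66-fold in WT and 82.5-fold in AS, and Cyr61, a secreted matrix protein, rose 4.32-fold in WT and 22.5-fold in AS. Ptgs2, the inducible cyclooxygenase, fell instead, with a log2 fold change of -4.48 (SE 0.59) in WT and -4.58 (SE 0.49) in AS. Of 11 heat shock genes, 8 were higher in bright GEC in each genotype and none was lower. The small chaperone gene Hspb1 rose 12.4-fold in WT and 66.2-fold in AS, and the inducible chaperone genes Hspa1a and Hspa1b rose 9.40-fold and 10.1-fold in WT and 12.6-fold and 10.8-fold in AS, 2 near-identical genes between which the counting could split reads. Hspa1a had 449, 755 and 138 CPM in WT dim and 3643, 5613 and 2996 CPM in WT bright libraries, with WT bright replicate 2 again the highest. Single libraries moved some of these folds. Hspa1a rose 14.5-fold in WT without WT dim replicate 2, and Hspa1a and Hspa1b 21.8-fold and 18.4-fold in AS without AS dim replicate 3. Hspa1b rose 6.92-fold without AS bright replicate 3, and Arc 6.32-fold in WT without WT bright replicate 2. The AS fold of Arc rests on low levels, with 0.141, 1.24 and 1.12 CPM in AS dim libraries. Its log2 fold change in AS was 5.82 to 6.75 over the fits that left out 1 library. The log2 fold change of Ptgs2 was -3.87 in WT without WT dim replicate 2 and -5.66 in AS without AS bright replicate 3.

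The other Nr4a genes were lower in bright GEC. Of 6 other Egr, Nr4a and Nab genes tested, 3 were lower and 1 higher in bright GEC of each genotype, beside 25.3% of all genes that passed in WT and 55.1% in AS, 26.5% as lower. Nr4a3 had 2289, 2692 and 2601 CPM in WT dim and 313, 317 and 514 CPM in WT bright libraries, and 2903, 2641 and 2279.9 CPM in AS dim and 206, 219.7 and 248 CPM in AS bright libraries. Its log2 fold change of bright over dim was -2.68 (SE 0.28) in WT and -3.55 (SE 0.20) in AS. Nr4a2 (-1.45 and -1.81) and Nab1 (-1.39 and -1.73), a corepressor of Egr proteins, were lower too.

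Of 8 dual-specificity phosphatases, which switch off the kinases upstream of AP-1, 3 were higher and 4 lower in bright GEC of WT and 2 higher and 4 lower in AS. Dusp2, a phosphatase of leukocytes, had a log2 fold change of -4.45 (SE 0.43) in WT and -5.46 (SE 0.21) in AS, and Dusp10 of -3.22 (SE 0.33) and -3.39 (SE 0.21). Dusp8 rose 4.44-fold in WT and 4.79-fold in AS, and Dusp6 rose 1.99-fold in WT and 5.79-fold in AS, where the WT call of Dusp6 held in 2 of the 6 fits that left out a library. Of 14 upstream factors and kinases, 4 were higher and 2 lower in WT and 4 higher and 3 lower in AS, where 25.3% and 55.1% of all genes passed. Elk3, a partner of serum response factor, rose 8.26-fold in WT and 8.45-fold in AS. Of the coactivators of serum response factor, Mkl2 rose 6.40-fold and 5.62-fold, while Mkl1 had log2 fold changes of -2.44 and -2.65. Of 12 AP-1 and related leucine zipper partners, 3 were higher and 1 lower in WT and 4 higher and 1 lower in AS, against the same shares of all genes. Batf2 had 1.49, 0.760 and 1.01 CPM in WT dim and 13.2, 18.5 and 17.4 CPM in WT bright libraries, a rise of 15.5-fold. In AS it had 0.212, 0.166 and 7.50 CPM in dim and 24.8, 13.9 and 20.5 CPM in bright libraries, with AS dim replicate 3 far above the other two of its group. Its rise in AS was 7.56-fold with that library and 98.3-fold without it. Batf, a factor of lymphocytes, had log2 fold changes of -1.66 and -2.23, of which the first lost its call without WT dim replicate 2, WT bright replicate 2 or WT bright replicate 3. Mafk rose 2.19-fold in WT, a call kept in 1 of the 6 fits that left out a library, and 2.94-fold in AS. Maff rose 3.53-fold in AS, and in WT its fold was 1.94, not past the threshold (adjusted p = 0.124).

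**Figure D5:**
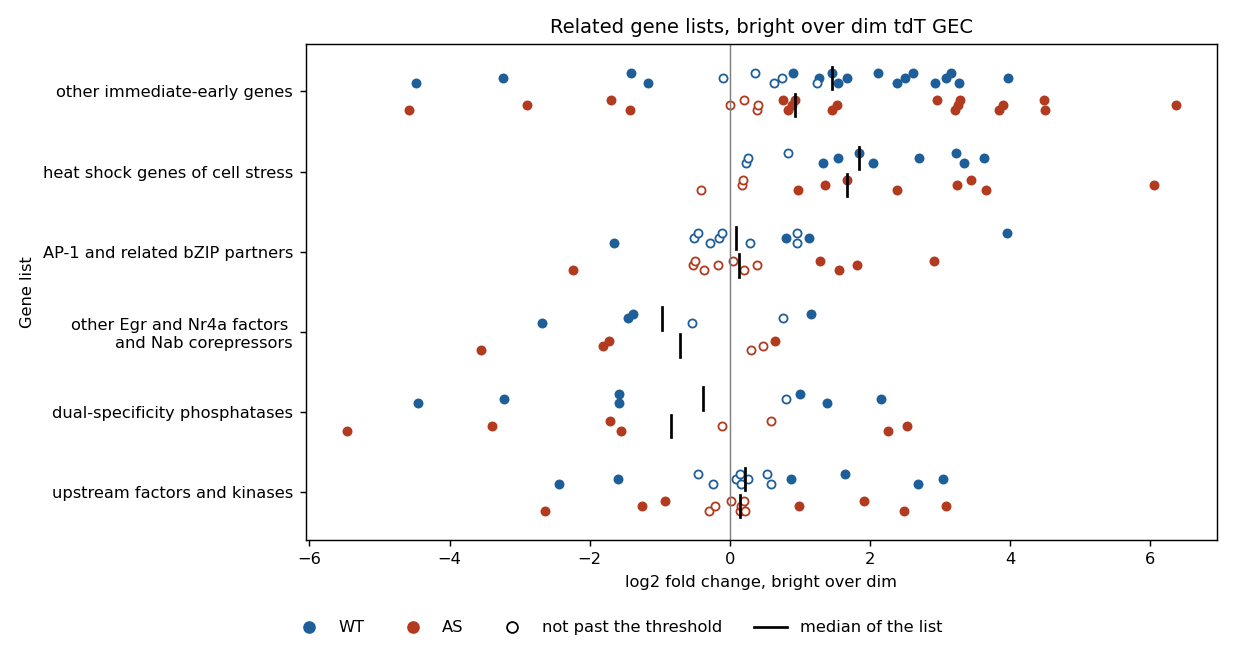
The log2 fold change of bright over dim GEC (horizontal axis) for the genes of 6 related lists (vertical axis), with 1 point per gene in WT and AS mice, open where an adjusted p of 0.05 was not passed, and a line at each list's median. Heat shock genes lie mostly right of 0, with medians of 1.84 in WT and 1.67 in AS, and the other lists hold genes on both sides.

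Between genotypes 6 of the 74 genes passed in dim GEC, 8.11% beside 8.63% of all genes, and 2 of the 74 in bright GEC, 2.70% beside 0.452%. In dim GEC, of the 23 other immediate-early genes 2 were higher in AS, the stress gene Gadd45b among them (1.68-fold, adjusted p = 0.0339), and 2 were lower, Cyr61 (log2 -2.14, adjusted p = 0.0206) and Arc (log2 -2.87, adjusted p = 0.0456), by edgeR's quasi-likelihood test. Dusp2 was 1.78-fold higher in AS dim GEC, with 373, 429 and 365 CPM in WT and 731, 625 and 767 CPM in AS libraries. Hspb1 was lower (log2 -3.70, SE 0.59), as 1 of 11 heat shock genes, and 0 of the 12 leucine zipper partners, 0 of the 14 upstream factors and 0 of the 6 Egr, Nr4a and Nab genes passed. In bright GEC Trib1, a pseudokinase gene, was 2.67-fold higher in AS (adjusted p = 0.0412) and Dusp6 was 2.44-fold higher (adjusted p = 0.0345) by the same test, and no gene of the other 4 lists passed. The 5 genes named in dim GEC (Gadd45b, Cyr61, Arc, Dusp2 and Hspb1) each lost the call without AS dim replicate 1 (adjusted p = 0.113 to 0.178) and without AS dim replicate 3 (0.107 to 0.149), fits in which 0 and 1 of all genes passed. Their log2 values there were 0.72 and 0.67 for Gadd45b, -2.21 and -2.40 for Cyr61, -2.35 and -3.16 for Arc, 0.78 in both for Dusp2, and -3.51 and -4.02 for Hspb1. Dusp2, Arc and Gadd45b also lost it without AS dim replicate 2, Arc without WT dim replicate 2 or 3, and Gadd45b without WT dim replicate 1 or 2. Trib1 and Dusp6 in bright GEC lost it without WT bright replicate 3, AS bright replicate 1 or AS bright replicate 3, with folds of 2.99, 2.44 and 2.72 for Trib1 and 2.40, 2.27 and 2.38 for Dusp6. In these 3 fits, and in the edgeR version 3 fit with all libraries, 0 of all genes passed. The median of the heat shock list was -0.72 in dim and -0.86 in bright GEC, beside medians of -0.02 and -0.03 over all genes.

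Of the other cell type lists, podocyte markers came to 469 to 1067 CPM in WT dim, 415 to 463 in AS dim, 105 to 215 in WT bright and 277 to 460.2 in AS bright libraries. Mesangial and mural markers came to 377 to 822 CPM in WT bright and 405 to 733 in AS bright, and to 45.4 to 173 in dim libraries. Proximal tubule markers came to 615 to 3580.3 CPM in WT bright and 135 to 755 in AS bright libraries, and distal nephron markers to 40.3 to 1663 CPM in dim and 22.5 to 524 in bright libraries.

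Reads shared with other genes can touch 3 of the 10. The exons of Jun and Junb overlap those of an antisense gene by 232 bases (Junos) and of a gene on the other strand by 173 bases (Prdx2), where Junos had 0 to 150 counts beside 1422 to 26237 for Jun. Prdx2 had 465 to 1566 counts beside 7226 to 72814 for Junb. The exons of Jund overlap the antisense gene Gm11175 by 877 of 1668 bases, and Gm11175 was not analysed here. The library kit was stranded, and the strand that was counted is not given in the sources used here.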

How the data were processed

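Dim and bright tdT GEC were sorted from 3 WT and 3 AS mice, and their RNA was sequenced by the authors, who aligned reads with STAR (2.6.0c in the submitters' processing notes) to Gencode M16 genes on the GRCm38.p5 genome. The deposited counts are STAR's reads per gene and are not normalized. The 92 spike-in RNAs of each table (0.0286% to 0.282% of counts) were left out. The deposited RPKM values and the authors' log2 fold changes, scores, p-values and statistics in other columns were not used. The genes were matched by symbol in both tables.

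Counts were tested in R 4.3.3 with edgeR 4.0.16 (TMM, filterByExpr, glmQLFit and glmQLFTest, Benjamini-Hochberg over all genes, threshold 0.05), on the libraries of each comparison, and on genes in both tables for bright over dim. All 10 genes passed the filter in every comparison. CPM used TMM factors of all 12 libraries on the 15768 genes in both tables, filtered by filterByExpr, and so sets levels across tables that were deposited separately. Lengths are exon unions in GENCODE M21. DESeq2 1.42.0, other scalings and filters, covariates, a block and leaving out each library were alternatives. The edgeR version 3 fit, and leaving out a library for genes other than the 10, were chosen as alternatives after seeing the data. The tests were tried on simulated data: of 185 genes changed by a log2 of 2 in the dim AS over WT design, 81 were recovered and 13 of the 94 calls were false, and of 193 for the interaction 14 were recovered, with 1 of 15 calls false. In bright AS over WT 10 of 125 calls were false, and for bright over dim 7 of 77 in WT and 14 of 158 in AS. The share of false calls was thus above 0.05 in every design. Each group had 3 libraries, and the p-values of AS over WT measure the spread between mice. The main fits of bright over dim and of the interaction did not pair the dim and bright libraries of a mouse. Their p-values treat these libraries as independent, and the block on the mouse was the alternative.

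The dim and bright libraries of a number come from the same mouse per the labels. Their deviations from group means correlated at 0.107 to 0.307 in WT and 0.0788 to 0.380 in AS. AS and WT libraries share only a number. The members and the lists were chosen with earlier results of these data known. Beside the 10 genes, up to 3 genes per related list and comparison are named, those past the threshold with the largest change, with Col4a5 and Tek as label checks and the 5 genes most like the 10 in level and in deviation. Itgam, listed on more than 1 row, was left out of the leukocyte counts.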

Additional observations from a re-analysis of the deposited data

Results flagged for a closer look

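None of the 10 genes was picked out. Of the related and label-check genes, 4 had a difference of AS over WT that differed between bright and dim GEC by the interaction in edgeR's quasi-likelihood test. Of the 74 related genes tested 2 passed, Dusp6 and Cyr61, which is 2.7% beside 3.77% of all genes. In the same test 10 of 14 endothelial markers (median 2.55) and 5 of 6 podocyte markers (median 2.43) passed, all higher, beside a median of 0.13 over all genes, and their part in these values was not tested. The value, bright minus dim on the log2 scale, was 1.59 for Dusp6 (SE 0.39, adjusted p = 0.0396, past the threshold in 2 of the 12 fits that left out a library) and 2.43 for Cyr61 (SE 0.47, adjusted p = 0.0129). It was 4.14 for Col4a5 (SE 0.66, adjusted p = 0.00515) and 2.96 for Tek (SE 0.44, adjusted p = 0.00432). Dusp6 had 61.2, 47.0 and 82.3 CPM in WT dim, 73.4, 35.9 and 51.6 in AS dim, 101, 144 and 123 in WT bright and 351, 268 and 320.4 in AS bright libraries. Cyr61 had 36.2, 57.0 and 45.5 CPM in WT dim, 11.2, 6.55 and 14.4 in AS dim, 173, 282 and 129 in WT bright and 245, 194 and 290.5 in AS bright libraries.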

How the results depend on the processing

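For AS over WT in dim GEC, where 1 of the 10 genes and 1263 of all genes passed, library sizes alone gave 3 of the 10, DESeq2 3 (2414 genes), the likelihood ratio test 2 (1946), all 12 libraries in one fit 2 (2106), and the proximal tubule covariate 0 (1 gene) and leukocyte covariate 0 (0 genes). The replicate block, on a number that WT and AS mice only share, gave 494 genes with Junb at 1.39 (adjusted p = 0.0380) and the edgeR version 3 fit 582. For AS over WT in bright GEC, where 65 genes passed, the counts were 39 with no filter, 1173 with DESeq2, 827 with the likelihood ratio test, 139 with 12 libraries, 16 with the replicate block, 0 with the proximal tubule covariate, 977 with the leukocyte covariate and 0 with the edgeR version 3 fit. For the interaction, where 569 passed, they were 1195 with DESeq2, 1114 with the likelihood ratio test and 877 with the replicate block on the mouse. The block changed the call of Fosl2 in AS bright over dim and no other call of the 10.

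Leaving out 1 library at a time gave 0 to 3 of the 10 genes for AS over WT in dim GEC and 0 to 0 in bright GEC, 8 to 8 for bright over dim in WT, 8 to 10 in AS and 0 to 0 for the interaction. The counts over all genes were 0 to 1825 in dim (0 without AS dim replicate 1), 0 to 281 in bright (0 without WT bright replicate 3, AS bright replicate 1 or AS bright replicate 3), 2534 to 3435 and 6651 to 7490 for bright over dim in WT and AS, and 252 to 857 for the interaction. Fosb passed in dim GEC without WT dim replicate 3.

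For bright over dim the leukocyte score nearly equals the group, since its markers were at 8821 CPM or more in every dim and 151 or less in every bright library. With it 0 of the 10 and 0 of all genes passed in WT and in AS, with standard errors of 2.23 and more. The log2 values that changed direction in WT were -0.87 for Fos, -1.69 for Fosb, 1.72 for Fosl2, -5.18 for Jun, -0.37 for Junb and -2.98 for Egr1. Jund, Atf3 and Ier2 kept theirs (1.17, 4.34 and 2.27). In AS the values that changed direction were -1.32 for Fos, -1.73 for Jun, -9.53 for Junb, -11.8 for Jund, -0.47 for Egr1, -3.89 for Atf3, -8.63 for Ier2 and 2.21 for Nr4a1, while Fosb (3.37) and Fosl2 (-1.72) kept theirs.

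The other changes of direction were all of values not past the threshold. With the leukocyte covariate, AS over WT in dim GEC was 0.35 for Fos, 0.33 for Jun, -0.13 for Egr1 and 0.012 for Atf3, and in bright GEC 0.080 for Jun, 0.32 for Egr1 and 0.066 for Nr4a1. With the proximal tubule covariate, it was -0.30 for Jund and -0.18 for Atf3 in bright GEC, and the interaction of Fosl2 was 0.012. Library sizes alone gave 0.027 for Ier2 in dim GEC and moved the median interaction of all genes from 0.13 to -0.03, and a filter at an average log2 CPM above 1 gave an interaction of -0.0065 for Fosb. Leaving out 1 library gave ranges across 0 in dim GEC for Egr1 (-0.047 to 0.35) and Atf3 (-0.33 to 0.060), in bright GEC for Egr1 (-0.38 to 0.14), Nr4a1 (-0.38 to 0.0059) and Jund (-0.088 to 0.68), in WT bright over dim for Fosl2 (-0.34 to 0.0036) and in the interaction for Fosb (-0.047 to 0.32), Egr1 (-0.54 to 0.093) and Jun (-0.017 to 0.47). The causes were not tested. The 10 genes had 1422 counts or more in every library.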

Other observations

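The gene whose level over the 12 libraries was most like the mean of the 10 was Ppp1r15a, the stress-induced subunit that directs a phosphatase to a translation factor, with a Pearson correlation of 0.995 among 12512 genes compared. Sipa1l2 (0.984), Tnfsf12 (0.983), Chst15 (0.982) and Lrrc8c (0.981) followed. These values describe libraries that fall into 4 groups and carry no test. Ppp1r15a had a log2 fold change of bright over dim of 2.06 (SE 0.24) in WT and 1.77 (SE 0.21) in AS, and of AS over WT of 0.17 (SE 0.19) in dim and -0.09 (SE 0.24) in bright GEC. Over deviations from the 4 group means, the genes most like the mean of the 10 were Tbc1d2b (0.963), Uspl1 (0.946), Fam53b (0.943), the pseudogene Gm6368 (0.928) and Ppp1r15a (0.925).

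Tek, whose promoter drives the Cre, had 19.6, 17.2 and 10.5 CPM in WT dim, 3.04, 2.57 and 2.31 in AS dim, 136, 272 and 175 in WT bright and 263, 257 and 246 in AS bright libraries.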
